A study of Mus musculus with 16 samples.

Results

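The 7 globin genes named here encode the embryonic and adult chains of mouse haemoglobin, and their counts were read in RNA of the whole fetal mouse lung, taken at mid-gestation (embryonic day, E14.5). They were found by symbol among 57180 genes. The embryonic genes are Hba-x (ENSMUSG00000055609), Hbb-y (ENSMUSG00000052187) and Hbb-bh1 (ENSMUSG00000052217). The adult genes are Hba-a1 (ENSMUSG00000069919), Hba-a2 (ENSMUSG00000069917), Hbb-bs (ENSMUSG00000052305) and Hbb-bt (ENSMUSG00000073940). Messenger RNA was selected on poly-T beads and sequenced in 16 libraries from male fetuses, in 4 groups of 4. The groups cross the inbred strains C57BL/6J (B6) and A/J with treatment of the pregnant dam. Dams took either corn oil, called control here, or BMS493, which holds every retinoic acid receptor in its inactive state (an inverse agonist), given orally from E9.5 to E14.5 at a daily 3.75 µg per g. BMS493 reached the fetus through the dam, and no group carried a transgene or mutation according to the labels. Litters are not named in the labels, so every p-value below measures the spread between these samples.

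Haemoglobin joins alpha-type chains to beta-type chains around haem. In the mouse, primitive red cells from the yolk sac enter the circulation first and use Hba-x, the zeta chain, with Hbb-bh1 and Hbb-y, the beta-h1 and epsilon-y chains. Hbb-bh1 is the earlier of these beta-type chains and Hbb-y the later. Definitive red cells then leave the fetal liver and use the adult alpha genes Hba-a1 and Hba-a2 with the adult beta genes, and at mid-gestation both kinds of cell circulate together. The vessels of the fetal lung carry such circulating cells. The beta cluster differs between laboratory strains: B6 carries the Hbb single haplotype, whose adult genes are Hbb-bs and Hbb-bt, while A/J carries the Hbb diffuse haplotype, whose adult genes are Hbb-b1 and Hbb-b2. The mouse reference genome is that of C57BL/6J, so A/J fragments were placed on B6 copies of these genes. Hbb-b1 and Hbb-b2 had no row by symbol and were not analysed here.

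The coding sequences show which globins a short fragment can tell apart, and are printed for that reason. In build GRCm38 the alpha-type genes lie on chromosome 11, at chr11:32276400-32278116 for Hba-x, chr11:32283511-32284465 for Hba-a1 and chr11:32296489-32297298 for Hba-a2, and the beta-type genes on chromosome 7, at chr7:103812524-103813996 for Hbb-bt, chr7:103826534-103828096 for Hbb-bs, chr7:103841637-103843164 for Hbb-bh1 and chr7:103851749-103853216 for Hbb-y, each with 3 exons. The sequences come from GENCODE M21 transcripts (build GRCm38), 1 transcript per gene. Hba-a1 and Hba-a2 differ at 1 of 429 coding bases (C381T, Hba-a1 first, counted from the first base of the start codon), the last base of codon 127. Hbb-bs and Hbb-bt differ at 1 of 444 coding bases (C417T, Hbb-bs first), the last base of codon 139. The embryonic genes are far from both pairs. Over coding bases compared without gaps, Hba-x was 62.0% identical to Hba-a1, Hbb-y was 74.3% identical to Hbb-bs and Hbb-bh1 was 74.1% identical to Hbb-bs. The stretches below span coding bases 349 to 408 for the alpha-type genes and 385 to 444 for the beta-type genes, with capitals marking the base that splits each adult pair and, in the embryonic genes, every base that differs from Hba-a1 or Hbb-bs.
Hba-a1: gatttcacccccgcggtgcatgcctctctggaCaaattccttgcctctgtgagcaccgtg
Hba-a2: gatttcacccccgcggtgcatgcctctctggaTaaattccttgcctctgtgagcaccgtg
Hba-x: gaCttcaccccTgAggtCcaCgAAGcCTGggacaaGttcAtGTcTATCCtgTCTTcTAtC
Hbb-bs: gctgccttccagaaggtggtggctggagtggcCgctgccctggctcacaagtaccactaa
Hbb-bt: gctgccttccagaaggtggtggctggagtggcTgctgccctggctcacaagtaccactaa
Hbb-y: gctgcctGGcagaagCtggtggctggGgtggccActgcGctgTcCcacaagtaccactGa
Hbb-bh1: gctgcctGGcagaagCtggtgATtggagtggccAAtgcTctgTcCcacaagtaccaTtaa
Of all 50-base windows of each transcript, 67.5% in Hba-a1, 86.9% in Hba-a2, 65.8% in Hbb-bs and 58.3% in Hbb-bt also occur in another gene, which for each was its own adult partner. For Hba-x, Hbb-y and Hbb-bh1 the share was 0%. Counts of the embryonic genes are therefore separable at this length, whereas the split within each adult pair rests on the bases that differ, and each adult pair is also given as a sum.

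Between 15207539 and 24146224 fragments per library were assigned to genes, which was 71.7% to 76.9% of all fragments. The 7 globins together took 0.160% to 0.391% of the assigned counts. Fragments that aligned to several places, which the gene counts leave out, made up 3.21% on average in B6 control and 3.11% in B6 BMS493 libraries, against 3.98% and 3.81% in A/J control and BMS493 libraries. Whether globin fragments are among them was not tested. Replicate 3 of the B6 BMS493 group stood apart from all other libraries on the second principal component of log2 CPM. It lay at 47.8, against a range of -15.6 to 9.07 in the others, and several results are also given without it. All 12 lung marker genes passed the filter on low counts, among them Nkx2-1 (161 CPM or more in every library), Tbx4 and Foxf1. All 7 globins passed the filter too, but Hba-a2 did so through its B6 libraries alone.

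Levels are in CPM (counts scaled to the library total, after TMM scaling), and between genes they are compared per kilobase of transcript. Fragments that fit both genes of an adult pair may be left out of their counts, to an extent that was not tested. The order of genes is therefore one of counted fragments, and adult levels may be too low beside embryonic ones. In B6 controls the mean level per kilobase was 1314 ± 190 CPM (SD, n = 4) for Hba-a1 and 1292 ± 183 for Hbb-bs, which did not differ beyond their spread. Hbb-y followed at 525 ± 57.6, then Hbb-bt at 209 ± 20.6, Hba-a2 at 145 ± 27.4 and Hba-x at 58.0 ± 5.10. Hbb-bh1, the earliest beta-type chain, was the lowest at 4.46 ± 0.755 CPM per kilobase. In A/J controls the order was Hba-a1 at 2032 ± 586, Hbb-bs at 1322 ± 412, Hbb-y at 1061 ± 215, Hbb-bt at 134 ± 54.6, Hba-x at 77.8 ± 16.6 and Hbb-bh1 at 8.86 ± 1.91, each as mean CPM per kilobase ± SD (n = 4). There the levels of Hba-a1 and Hbb-bs did not differ beyond their spread, and neither did those of Hbb-bs and Hbb-y. Hba-a2 was last in A/J controls, at 0.245 ± 0.259 CPM per kilobase. Counts per library ranged from 11854 to 47346 for Hba-a1, 3730 to 16723 for Hbb-y and 586 to 1575 for Hba-x, and from only 16 to 143 for Hbb-bh1, so the last has the widest counting error of the embryonic genes.

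**Figure D1:**
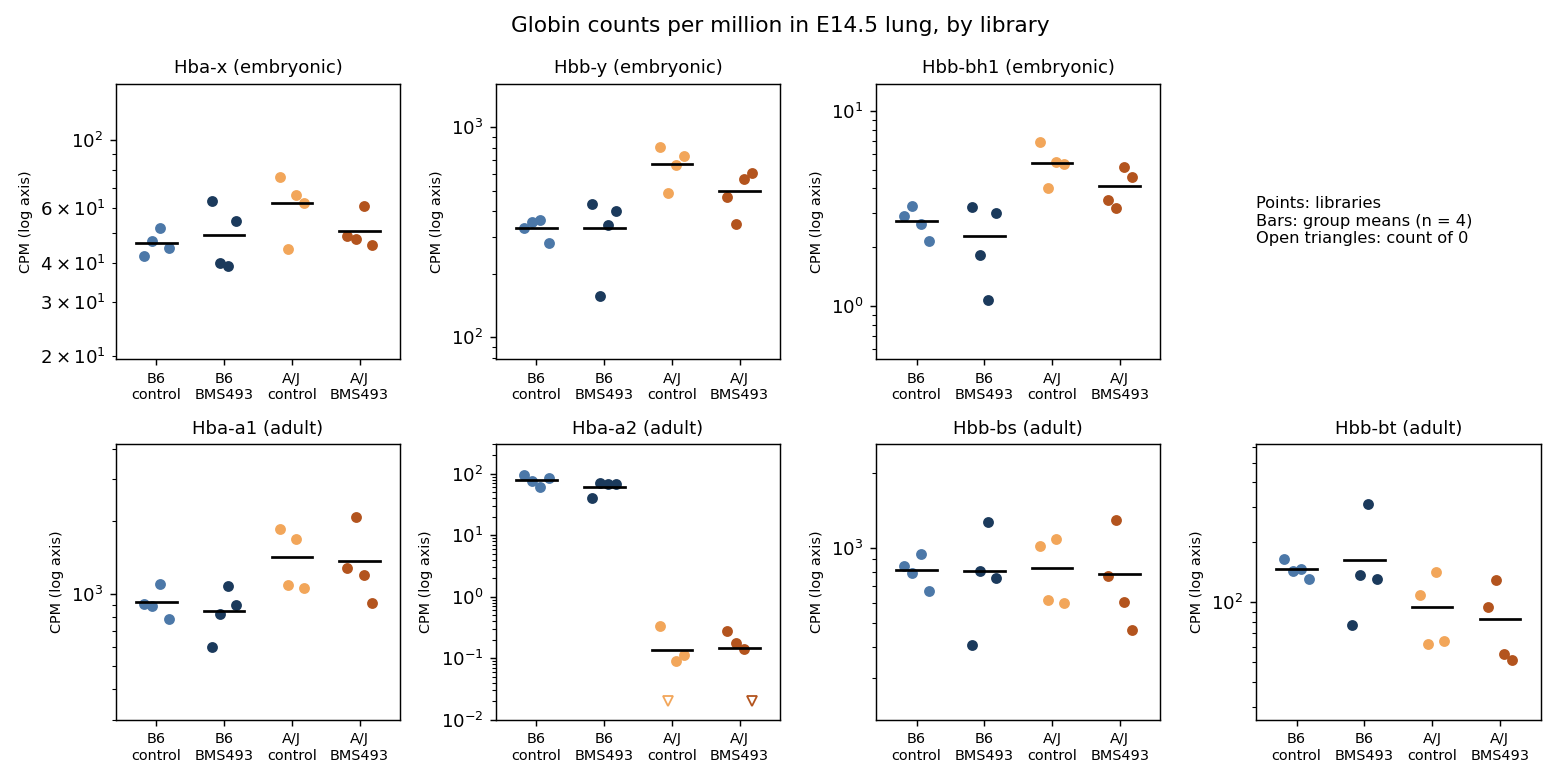
CPM of each globin (log axis) in the 16 libraries, by strain and treatment, with points for libraries, bars for group means (n = 4) and open triangles for a count of 0. Hbb-y and Hbb-bh1 in A/J controls lie above every B6 control, and Hba-a2 in A/J lies below 0.4 CPM in all 8 libraries.

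Hbb-y, the late embryonic beta-type chain, was 2.02-fold higher in A/J than in B6 control lungs, and Hbb-bh1 was 1.96-fold higher. Hbb-y was at 333, 352, 363 and 281 CPM in B6 controls and at 807, 489, 658 and 733 CPM in A/J controls. In BMS493 lungs Hbb-y was at 431, 158, 342 and 400.0 CPM in B6 and at 466, 347, 568 and 606 CPM in A/J. All 4 A/J controls lay above all 4 B6 controls, while with BMS493 the strains overlapped, with replicate 2 of B6 the lowest of all libraries. In controls the log2 fold change of Hbb-y was 1.01 (SE 0.28, 95% interval 0.41 to 1.62, adjusted p = 0.0251 by edgeR's quasi-likelihood test). With BMS493 it was 0.58 (SE 0.28, interval -0.02 to 1.18, adjusted p = 0.177 by edgeR), which did not pass. The call in controls was lost when any of 5 of the 8 control libraries was left out (B6 replicate 1, 2 or 4, A/J replicate 1 or 4), with an adjusted p of up to 0.0741 by edgeR.

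Hbb-bh1, the early embryonic beta-type chain, followed Hbb-y at a far lower level. Its CPM was 2.89, 3.26, 2.62 and 2.16 in B6 controls and 6.90, 4.03, 5.47 and 5.33 in A/J controls. In BMS493 lungs Hbb-bh1 was at 3.23, 1.82, 1.07 and 2.99 in B6 and 3.48, 3.17, 5.16 and 4.58 in A/J. The control libraries of the strains did not overlap, and with BMS493 they overlapped only where B6 replicate 1 lay above A/J replicate 2. Hbb-bh1 was higher in A/J by 0.97 on the log2 scale in controls (SE 0.25, interval 0.47 to 1.48, adjusted p = 0.00653 by edgeR). With BMS493 the log2 fold change was 0.83 (SE 0.26, interval 0.31 to 1.36, adjusted p = 0.0220 by edgeR), a 1.78-fold difference. That second call was lost without B6 BMS493 replicate 3, the library that stood apart (0.62, adjusted p = 0.0662 by edgeR), and without B6 BMS493 replicate 2 or A/J BMS493 replicate 3 or 4 (adjusted p of up to 0.0892). Nor did it hold when the fit used just these 8 libraries (0.84, adjusted p = 0.0739 by edgeR) or the second stranded column (0.82, adjusted p = 0.0568).

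Hba-x, the embryonic alpha-type chain, was at 42.1, 47.1, 51.8 and 44.8 CPM in B6 controls and at 76.0, 44.2, 66.3 and 62.7 CPM in A/J controls. After BMS493, Hba-x was at 63.6, 39.8, 39.1 and 54.4 CPM in B6 and at 48.9, 47.6, 61.3 and 45.6 CPM in A/J. The strains overlapped under both treatments, in controls through A/J replicate 2 alone. Hba-x was not called between strains. Its log2 fold change, A/J against B6, was 0.42 in controls (interval 0.05 to 0.79, adjusted p = 0.118 by edgeR) and 0.05 with BMS493 (interval -0.33 to 0.42, adjusted p = 0.890). Without A/J control replicate 2 the control value was 0.56 and passed (adjusted p = 0.0161 by edgeR).

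Among the 7 globins, 3 were called between strains in controls (Hbb-y and Hbb-bh1 higher in A/J, Hba-a2 lower), against 16.9% of all genes tested. Hba-a2 passed the filter on low counts through B6 alone and could only be called lower, so nothing is read from its part in these counts. The same 3 had control libraries that did not overlap between strains, against 24.3% of all genes. With BMS493, 2 of the 7 were called (Hbb-bh1 higher, Hba-a2 lower), against 20.0% of all genes. There Hba-a2 was the only globin whose libraries did not overlap between strains, against 19.5% of all genes. The median log2 fold change over the 7 globins was 0.42 in controls and 0.05 with BMS493, beside medians over all genes of 0.01 and 0.00.

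Hba-a1, an adult alpha gene, had the highest mean level per kilobase of the 7 in controls of both strains. It was at 906, 885, 1101 and 783 CPM in B6 controls and at 1852, 1088, 1689 and 1053 CPM in A/J controls. After BMS493, Hba-a1 was at 599, 826, 1079 and 893 CPM in B6 and at 1273, 2083, 1199 and 917 CPM in A/J. The strains overlapped under both treatments, since A/J control replicates 2 and 4 lay below the highest B6 control. The log2 fold change, A/J against B6, was 0.63 in controls (interval 0.04 to 1.22, adjusted p = 0.142 by edgeR) and 0.69 with BMS493 (interval 0.10 to 1.28, adjusted p = 0.0996 by edgeR), and neither passed.

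Hba-a2, the partner of Hba-a1, had almost no counts in A/J. It was at 96.7, 76.0, 61.3 and 86.8 CPM in B6 controls and at 40.8, 70.8, 67.4 and 67.2 CPM in B6 BMS493 lungs. In A/J controls the raw counts were 7, 0, 2 and 2, and in A/J BMS493 lungs they were 6, 4, 3 and 0, against 808 to 1876 counts in each B6 library. No A/J library came near any B6 library. A count of 0 still allows up to 3 counts, or 0.130 CPM in A/J control replicate 2 and 0.151 CPM in A/J BMS493 replicate 4, as counting error only. The fitted log2 fold change of Hba-a2, A/J against B6, was -9.18 in controls (SE 0.38) and -8.61 with BMS493 (SE 0.37). It is a description with no test, since the gene passed the filter through B6 alone, and at such counts the fitted size depends on the prior count. Summed with Hba-a1, the adult alpha level was 999 ± 122 CPM (SD, n = 4) in B6 controls and 1421 ± 410 in A/J controls. That sum was not called, with a log2 fold change of 0.51 in controls (interval -0.07 to 1.09, adjusted p = 0.232 by edgeR) and 0.59 with BMS493 (interval 0.01 to 1.17, adjusted p = 0.154). How A/J fragments were divided between the 2 copies was not tested.

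The bases upstream of the start sites are shown for the adult alpha pair, whose split differed between strains, and for Hbb-y with its adult counterpart Hbb-bs. They are the 120 bases before the RefSeq start site of each gene in build GRCm38.p6 (the counts were made on GRCm39, so these coordinates are those of the sequence table). The GENCODE models reach past these RefSeq starts, so the windows of Hba-a1 and Hbb-bs lie wholly within the gene spans given above and those of Hba-a2 and Hbb-y lie partly within them. RefSeq promoter entries were matched for 6 of the 7 globins, all but Hbb-bh1. Capitals mark the motif CACCC, the box CCAAT, the GATA motif GATAA and the TATA-type motifs ATAAA and also TATAA, searched on both strands, of which the last pair can overlap by 4 bases.
Hba-a1 (chr11:32283552-32283671, plus strand): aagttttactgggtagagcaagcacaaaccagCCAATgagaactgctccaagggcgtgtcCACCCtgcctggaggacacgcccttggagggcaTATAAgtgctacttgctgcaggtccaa
Hba-a2 (chr11:32296372-32296491, plus strand): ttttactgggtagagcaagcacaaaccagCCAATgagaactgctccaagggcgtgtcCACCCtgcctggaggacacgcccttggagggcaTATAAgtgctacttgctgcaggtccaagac
Hbb-y (chr7:103853208-103853327, minus strand): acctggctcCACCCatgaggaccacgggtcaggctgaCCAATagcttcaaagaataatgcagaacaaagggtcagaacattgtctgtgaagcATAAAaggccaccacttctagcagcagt
Hbb-bs (chr7:103827929-103828048, minus strand): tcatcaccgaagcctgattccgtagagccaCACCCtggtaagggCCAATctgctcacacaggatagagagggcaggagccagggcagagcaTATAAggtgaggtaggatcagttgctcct
Upstream of Hba-a1 and Hba-a2 a run of 247 of the 250 bases searched is shared, so the B6 reference copies hold the same motifs. CCAAT began 88, CACCC 60 and TATAA 27 bases before the start in Hba-a1, and 91, 63 and 30 bases before it in Hba-a2. In Hbb-y, CACCC began 111, CCAAT 83 and ATAAA 28 bases before the start. In Hbb-bs, CACCC began 90, CCAAT 76 and TATAA 29 bases before it. Among 32544 RefSeq promoters, windows of the same 120 bases held CACCC in 31.8%, CCAAT in 21.2%, ATAAA in 20.2%, TATAA in 11.9% and GATAA in 10.4%. A match describes letters only, and A/J sequence was not analysed here.

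Hbb-bs, the more abundant adult beta gene, was not called between strains. It was at 845, 789.7, 943 and 668 CPM in B6 controls and at 1019.5, 614, 1087 and 601 CPM in A/J controls. In BMS493 lungs Hbb-bs was at 409, 803, 1265 and 753 CPM in B6 and at 770.1, 1297, 608 and 469 CPM in A/J. Libraries of both strains covered nearly the same range. The log2 fold change, A/J against B6, was 0.03 in controls (interval -0.76 to 0.83, adjusted p = 0.966 by edgeR) and -0.04 with BMS493 (interval -0.83 to 0.75, adjusted p = 0.958), so differences of up to about 0.8 either way lie within the intervals.

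Hbb-bt, the less abundant adult beta gene, was at 166, 144, 147 and 130.4 CPM in B6 controls and at 109.5, 62.2, 142 and 64.3 CPM in A/J controls. After BMS493, Hbb-bt was at 77.3, 137, 309.8 and 131 CPM in B6 and at 95.2, 130.2, 54.9 and 51.6 CPM in A/J. A/J libraries were mostly lower but overlapped B6 under both treatments. The log2 fold change of Hbb-bt was -0.64 in controls (interval -1.57 to 0.29, adjusted p = 0.367 by edgeR) and -0.97 with BMS493 (interval -1.91 to -0.04, adjusted p = 0.143), and without B6 BMS493 replicate 3 the value with BMS493 was -0.47 (adjusted p = 0.438 by edgeR). The sum of Hbb-bs and Hbb-bt differed by -0.05 in controls and by -0.16 with BMS493 on the log2 scale (adjusted p = 0.951 and 0.816 by edgeR).

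Within a library the split between Hbb-bs and Hbb-bt separated the strains although neither gene was called. The ratio of Hbb-bs to Hbb-bt counts was 5.10, 5.49, 6.39 and 5.12 in B6 controls and 9.31, 9.88, 7.67 and 9.34 in A/J controls. In BMS493 lungs the ratio was 5.29, 5.87, 4.08 and 5.75 in B6 and 8.09, 9.96, 11.1 and 9.07 in A/J. All 8 A/J libraries lay above all 8 B6 libraries. Over both treatments the ratio was 1.73-fold higher in A/J, 0.79 on the log2 scale (exact permutation test, two-sided, strain labels permuted within treatment, p = 0.0004082, the smallest that the 4900 assignments allow, adjusted p = 0.0049 over 8 ratios and 3 comparisons). Within libraries named 1 to 8 the difference was 0.77 and within those named 9 to 16 it was 0.81. The ratio of Hba-a2 to Hba-a1 was between 0.0557 and 0.111 in B6 and between 1.99e-05 and 0.000237 in A/J, with 0.5 added to each count. Its log2 difference was -9.85, or -8.20 with a pseudocount of 5 in place of 0.5, given as a description from which no test is read. Its strain comparison is still among the 24 tests adjusted together, which can lower the other adjusted p-values. Since these copies differ at few bases and A/J has its own haplotypes, both ratios are ratios of fragments placed on the B6 copies.

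**Figure D2:**
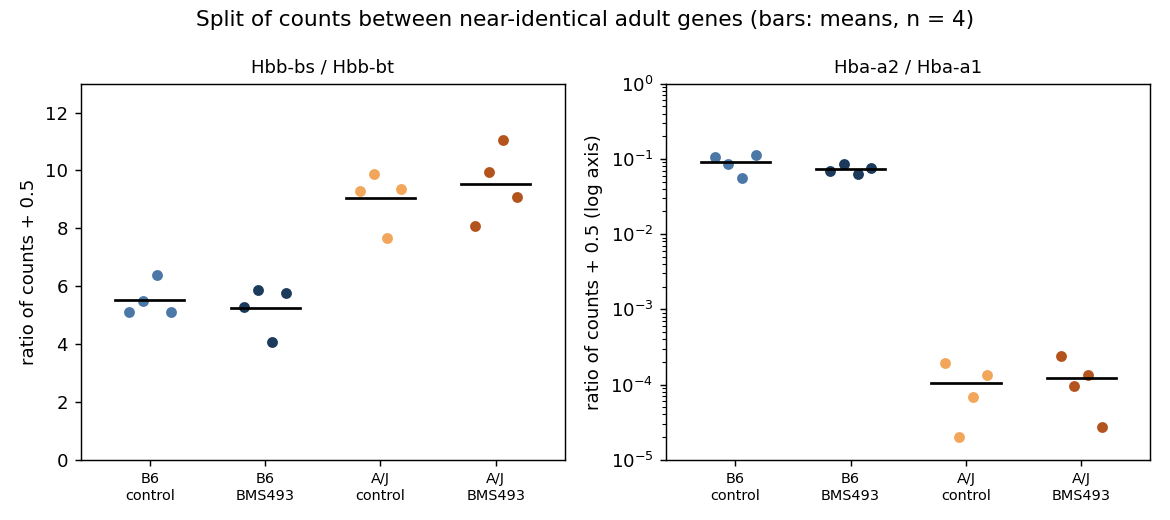
Ratio of counts between near-identical adult genes in each library, with bars for group means (n = 4) and 0.5 added to each count. The left panel shows Hbb-bs over Hbb-bt, from 4.08 to 6.39 in B6 and 7.67 to 11.1 in A/J, and the right panel shows Hba-a2 over Hba-a1 on a log axis, from 0.0557 to 0.111 in B6 and at or below 0.000237 in A/J.

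None of the 7 globins was called for BMS493 in either strain. In B6, 0 of 7 were called, against 0.423% of all genes, and none had p under 0.05 before adjustment by edgeR or a call by DESeq2. In A/J, 0 of 7 were called, against 0.486% of all genes, again with 0 at an unadjusted p under 0.05 by edgeR and 0 calls by DESeq2. In B6 the libraries of treated and control lungs overlapped for every globin, while 4.71% of all genes did not overlap, and in A/J they also overlapped for every globin, while 4.87% of all genes did not. The intervals show what the data could have held. Hba-x differed in B6 by 0.08 on the log2 scale (interval -0.29 to 0.46) and in A/J by -0.29 (interval -0.66 to 0.08). Hbb-y differed in B6 by -0.00 (interval -0.60 to 0.60) and in A/J by -0.44 (interval -1.03 to 0.16). Hbb-bh1 differed in B6 by -0.26 (interval -0.81 to 0.28) and in A/J by -0.41 (interval -0.89 to 0.08). The B6 value of Hbb-bh1 was -0.06 without B6 BMS493 replicate 3 and -0.48 without replicate 1, neither called. All 3 embryonic chains therefore had negative values in A/J, none of which passed.

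The adult genes had intervals as wide. For BMS493 against control, Hba-a1 had a log2 fold change of -0.11 in B6 (interval -0.70 to 0.47) and -0.05 in A/J (interval -0.64 to 0.53). Hbb-bs had -0.01 in B6 (interval -0.80 to 0.78) and -0.08 in A/J (interval -0.87 to 0.71). Hbb-bt had 0.15 in B6 (interval -0.77 to 1.07) and -0.19 in A/J (interval -1.12 to 0.75). Without B6 BMS493 replicate 3 the B6 values were -0.25 for Hba-a1, -0.31 for Hbb-bs and -0.35 for Hbb-bt, none of them called. Hba-a2 in B6 had the lowest adjusted p of the 7 there, with a log2 fold change of -0.38 (interval -0.77 to 0.01, adjusted p = 0.555 by edgeR). Without B6 BMS493 replicate 1 that value was -0.22. In A/J the counts of Hba-a2 are too few for a useful interval (-2.19 to 2.58). The effect of BMS493 differed between strains for 0 of 7 globins, against 0.00579% of all genes, with an adjusted p of 0.999 for each by edgeR and 0 at an unadjusted p under 0.05.

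**Figure D3:**
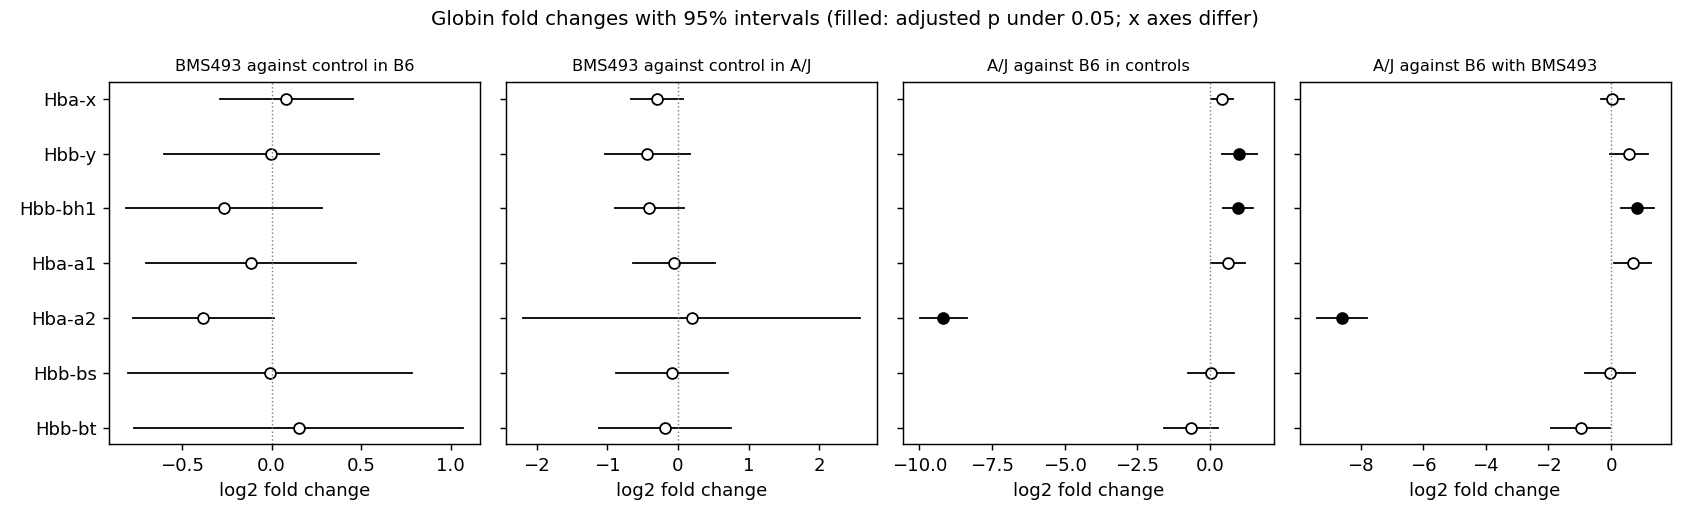
Log2 fold changes of the 7 globins with 95% intervals from edgeR in 4 comparisons, filled where the adjusted p was under 0.05, on x axes that differ between panels. No globin is filled for BMS493 in B6 or A/J, and Hba-a2 lies at -9.18 and -8.61 between strains.

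The embryonic share is the summed CPM of the embryonic globins as a percentage of the embryonic and adult globins together. Whether it follows the balance of primitive and definitive red cells was not tested. Fragments that fit both genes of an adult pair may be left out, so the share may be too high. The embryonic share was 15.8%, 17.5%, 15.7% and 16.4% in B6 controls and 23.0%, 23.3%, 20.0% and 31.8% in A/J controls. After BMS493 the share was 30.7%, 9.79%, 12.3% and 19.9% in B6 and 19.5%, 10.2%, 25.4% and 31.3% in A/J. B6 controls were the tightest group, at 16.4% ± 0.847 (SD, n = 4), and all A/J controls lay above them at 24.5% ± 5.08. With BMS493 the libraries spread from the lowest to nearly the highest share in both strains, at 18.2% ± 9.38 in B6 and 21.6% ± 9.03 in A/J. The ratio of embryonic to adult counts was 1.44-fold higher in A/J over both treatments, which did not pass (exact permutation test, two-sided, p = 0.121, adjusted p = 0.483). It was 0.908-fold in BMS493 against control lungs (exact permutation p = 0.672, adjusted p = 0.882).

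The beta-type and the alpha-type ratios were also read apart, and their strain differences were not tested against each other. Hbb-y and Hbb-bh1 summed, over Hbb-bs and Hbb-bt summed, were at 0.333, 0.381, 0.336 and 0.355 in B6 controls and at 0.720, 0.729, 0.540 and 1.11 in A/J controls. With BMS493 this beta-type ratio was 0.894, 0.170, 0.218 and 0.456 in B6 and 0.543, 0.245, 0.864 and 1.17 in A/J. In A/J control replicate 4 and A/J BMS493 replicate 4 the embryonic beta counts exceeded the adult ones. The beta-type ratio was 1.92-fold higher in A/J over both treatments (log2 0.94, exact permutation test, two-sided, p = 0.0282), which did not pass after adjustment (adjusted p = 0.169). Without B6 BMS493 replicate 1 it passed at 1.17 (exact permutation, adjusted p = 0.0441), and without A/J BMS493 replicate 2 at 1.16 (adjusted p = 0.0416). It was 0.47 within libraries named 1 to 8 and 1.42 within those named 9 to 16. For the alpha-type chains, the ratio of Hba-x to Hba-a1 and Hba-a2 summed had a log2 difference of -0.28 (exact permutation p = 0.265, adjusted p = 0.794), the opposite sign. This alpha-type difference was -0.07 in controls alone and -0.13 without B6 BMS493 replicate 1. Within libraries named 1 to 8 it was -0.66, and within those named 9 to 16 it was 0.10. Hbb-y over Hbb-bh1 was near 120 in A/J controls (117, 121, 119.8 and 137) and in B6 controls (114, 107, 137 and 128). Its log2 strain difference was -0.13 over both treatments (exact permutation p = 0.662, adjusted p = 0.882). In controls alone the difference was 0.02, and over both treatments without B6 BMS493 replicate 3 it was 0.05.

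**Figure D4:**
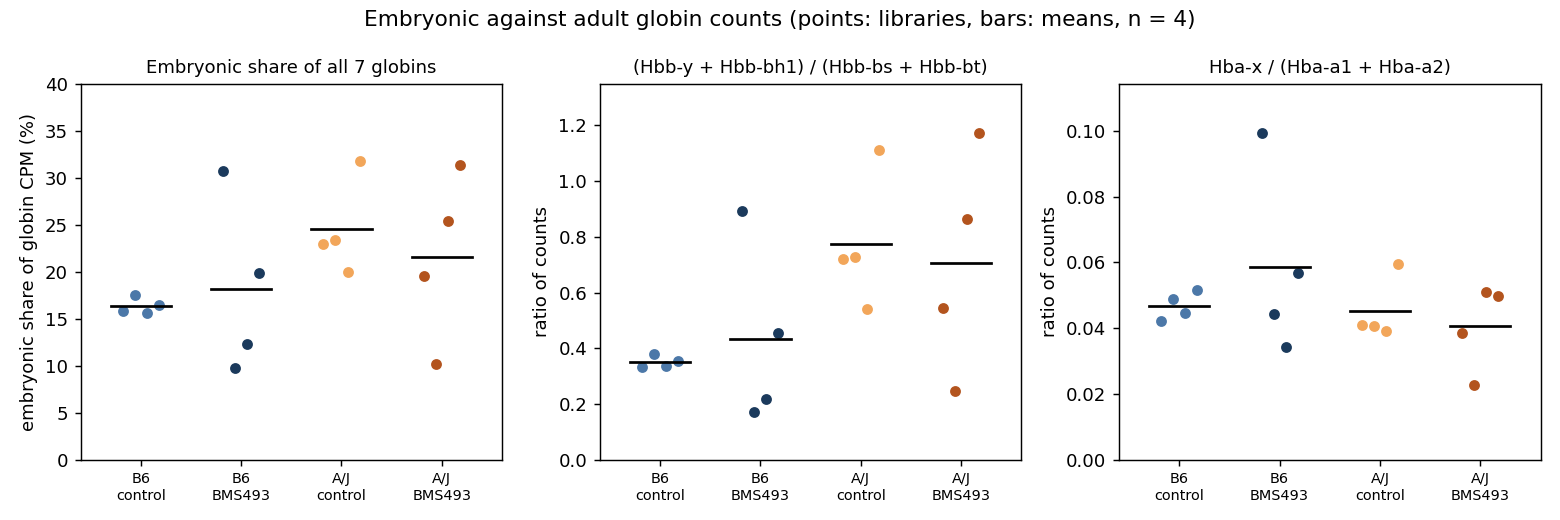
Embryonic against adult globin counts in each library, with bars for group means (n = 4): the embryonic share of the CPM of all 7 globins in percent, the beta-type ratio and the alpha-type ratio. B6 controls lie between 15.7% and 17.5% in the left panel and A/J controls between 20.0% and 31.8%, while both BMS493 groups spread from about 10% to 31%.

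Alpha-type counts as a whole, as placed on the B6 copies, were higher relative to beta-type counts in A/J. Fragments shared within an adult pair may be left out unequally, and A/J has its own beta haplotype. Their part in this ratio was not tested. The ratio of Hba-x, Hba-a1 and Hba-a2 to the 4 beta-type genes was 0.776, 0.782, 0.833 and 0.846 in B6 controls and 0.993, 0.968, 0.928 and 0.795 in A/J controls. In BMS493 lungs it was 0.764, 0.852, 0.618 and 0.788 in B6 and 0.990, 1.20, 1.02 and 0.851 in A/J. The strains overlapped slightly under both treatments, through replicate 4 of A/J each time. The log2 difference over both treatments was 0.30, a 1.23-fold difference (exact permutation test, two-sided, p = 0.00245, adjusted p = 0.0196). It was 0.38 within libraries named 1 to 8 and 0.22 within those named 9 to 16. With same-numbered replicates taken as pairs the strain difference did not pass (exact sign-flip permutation test, adjusted p = 0.125). Replicate numbers did not pair the samples. Between BMS493 and control lungs this ratio differed by 0.01 on the log2 scale, which did not pass (exact permutation p = 0.874, adjusted p = 0.982). No other ratio passed for BMS493, with the lowest adjusted p at 0.882, nor did the difference of its effect between strains for any of the 8 ratios (lowest adjusted p = 0.511).

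Within groups, Hba-a1, Hbb-bs and Hbb-bt varied together from library to library. After group means were removed from log2 CPM, Pearson's r over 16 libraries was 0.96 between Hba-a1 and Hbb-bs and 0.95 between Hbb-bs and Hbb-bt. The latter shares near-identical sequence. Hba-a2, read in the 8 B6 libraries only, had r = 0.37 with Hba-a1, 0.55 with Hbb-bs and 0.57 with Hbb-bt. Among embryonic genes r was 0.77 for Hba-x with Hbb-bh1, 0.65 for Hba-x with Hbb-y and 0.56 for Hbb-y with Hbb-bh1, and without B6 BMS493 replicate 3 the last was 0.80. Between the mean log2 CPM of the 3 embryonic globins and the log2 CPM of the summed adult globins r was -0.32 (Spearman's rho -0.24). These are descriptions of 16 libraries that share group means and depth.

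Alas2, which starts haem synthesis in red cells, was the tested gene whose pattern was most like the summed adult globins, with r = 0.95 (rho 0.92) over the 16 libraries after group means were removed. Its CPM was 30.2, 27.4, 36.8 and 23.9 in B6 controls, 16.5, 31.0, 43.0 and 25.1 in B6 BMS493 lungs, 27.7, 19.7, 32.6 and 18.5 in A/J controls and 25.9, 41.8, 16.7 and 10.5 in A/J BMS493 lungs. In each of the 4 groups the library lowest in Alas2 was also lowest in adult globins. Against the summed embryonic globins Alas2 had r = -0.41 (rho -0.46). Also among those most like the adult globins were Ncf1 (r = 0.89), Mkrn1 (0.88), Tent5c (0.86), ENSMUSG00000121605 (0.86), Tmed3 (0.85) and Hr (0.85). Most like the mean log2 CPM of the 3 embryonic globins were Arntl2 (r = 0.88), Ankrd34a (0.87), Mrps5 (0.87), Bnc1 (0.86), Isl1 (0.86), Wt1 (0.85), Fbxl2 (0.84) and Spidr (0.84), and none of these is in the erythroid lists. These were picked as the highest among the 17276 genes tested, so r is high by choice.

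**Figure D5:**
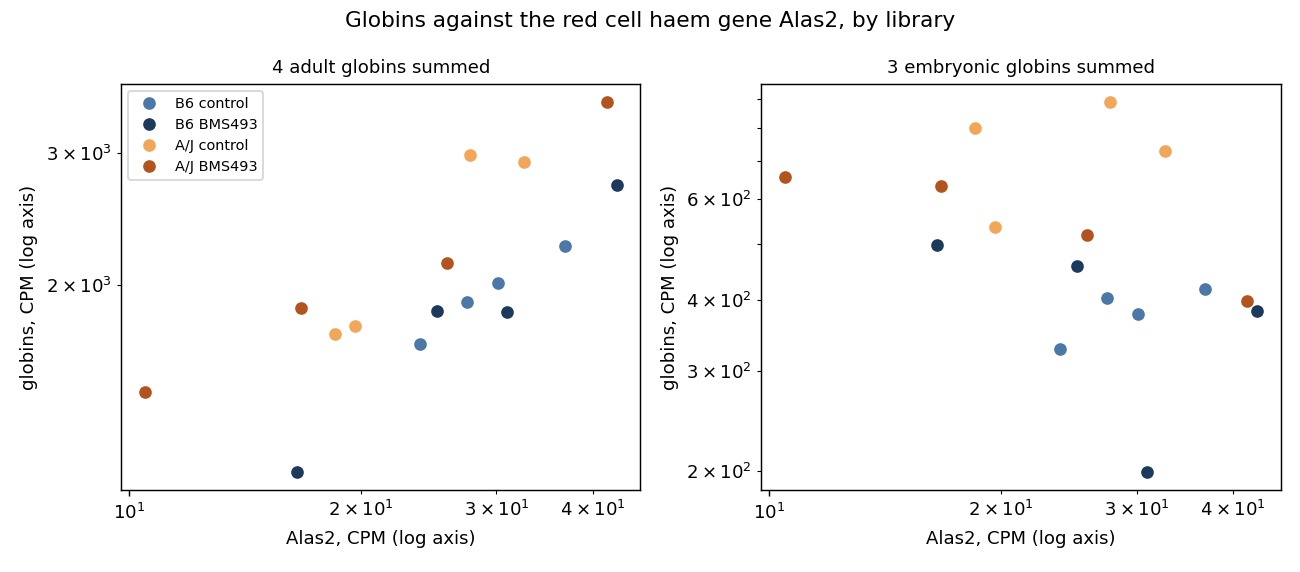
Summed adult globins (left) and summed embryonic globins (right) against Alas2, all in CPM on log axes, with 1 point per library coloured by group. Adult globins follow Alas2 (r = 0.95 after group means are removed, 16 libraries) and embryonic globins have r = -0.41.

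Other red cell genes were read beside the globins. Of 65 genes for erythroid transcription, haem and iron, the red cell membrane and the red cell cytoplasm, 59 were tested. Between control strains 5 were higher in A/J and 5 lower, or 16.9% (all genes 16.9%), with a median log2 fold change of -0.07. With BMS493 4 were higher and 7 lower, or 18.6% (all genes 20.0%), with a median of 0.00. These counts moved with the libraries used. With only the 8 libraries compared they were 17 of 56 in controls, or 30.4% (all genes 22.6%), and 5 of 57 with BMS493, or 8.77% (all genes 14.3%). Without A/J control replicate 3 the count in controls was 6, or 10.2% (all genes 15.9%). With BMS493 it was 5, or 8.47%, without B6 replicate 2 (all genes 14.6%) or A/J replicate 4 (all genes 15.1%), and 6, or 10.2%, without A/J replicate 1 (all genes 15.5%). For BMS493, 0 of 59 were called in B6 and 0 of 59 in A/J by edgeR, with 5 and 4 at an unadjusted p under 0.05, and without B6 BMS493 replicate 3 the B6 count was 1. In a whole lung, fewer red cells and less RNA per cell cannot be told apart. All 7 globins over the summed other erythroid genes differed by 0.26 on the log2 scale, A/J against B6 (exact permutation test, two-sided, p = 0.107, adjusted p = 0.483).

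By role, 3 of 15 tested genes of the haem and iron list were called between control strains (all genes 16.9%). Alad, the second enzyme of haem synthesis, was at 46.9 ± 2.31 CPM (SD, n = 4) in B6 and 123 ± 9.30 in A/J controls, 1.40 higher on the log2 scale (SE 0.08, interval 1.24 to 1.55, adjusted p = 1.79e-13 by edgeR), and Tfrc, the transferrin receptor, was also called higher. Ppox, a late enzyme of the same pathway, was lower in A/J controls (log2 fold change -0.64, adjusted p = 2.87e-06 by edgeR). Alas2 was not called (log2 -0.27, adjusted p = 0.711). Among transcription factors 2 of 14 tested were lower in A/J controls and 0 higher, a share near that of all genes (16.9%). Gata1, the master regulator of red cells that megakaryocytes also use, was at 1.07 ± 0.317 CPM in B6 and 0.440 ± 0.195 in A/J controls (log2 -1.29, adjusted p = 0.0257 by edgeR), and with BMS493 it was not called (-0.74, adjusted p = 0.218). Lyl1 had a log2 fold change of -0.57 in controls. Klf1, which switches on adult beta globin, was not called (log2 -0.89, adjusted p = 0.267), and neither was Sox6 (0.09), a repressor of embryonic globin. Bcl11a, a repressor of embryonic and fetal globins that neurons also use, was not called in controls (log2 0.19, adjusted p = 0.120) and was called with BMS493 (0.25, adjusted p = 0.0284 by edgeR). With BMS493, Nfe2, Lyl1, Foxo3 and Kat2b were lower in A/J.

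In the membrane list 2 of 17 tested genes were higher in A/J controls and 0 lower, a share under that of all genes (16.9%). Ank1, the ankyrin that ties the red cell skeleton to its membrane, had a log2 fold change of 0.63 (adjusted p = 0.0337 by edgeR) in controls and 0.60 with BMS493 (adjusted p = 0.0431), and Dmtn had 0.40 in controls. Slc4a1, the red cell anion exchanger that Ank1 holds, was not called (log2 -0.01 in controls and 0.33 with BMS493), and nor was Epor, the erythropoietin receptor (0.15 and -0.08). With BMS493 Tspo2 was lower (log2 -1.94). In the cytoplasm list, Prdx2 was called higher and Isg20 (log2 -1.39) and Mgst3 (-0.59) lower in A/J controls, 3 of 14 tested (all genes 16.9%).

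Markers of other cells were read beside the strain values, and their part in them was not tested. Of 8 tested platelet and megakaryocyte genes 7 were lower in A/J controls and 0 higher (all genes called in either direction 16.9%), with a summed level of 23.2 CPM or more in each B6 control and 14.3 or less in each A/J control. With BMS493 6 of the 8 were lower (all genes 20.0%), and levels were 16.2 to 38.6 CPM in B6 and 12.2 to 14.05 in A/J. Of 12 endothelial genes 9 were lower in A/J controls and 0 higher (all genes 16.9%), with summed levels of 1620 to 1742 CPM in B6 and 1174 to 1404 in A/J. With BMS493 11 of the 12 were lower (all genes 20.0%), at 1521 to 1853 CPM in B6 and 1172 to 1385 in A/J. The 12 liver genes, markers of the fetal organ where red cells form, summed to 1.57 to 14.6 CPM in any library, with Alb at 5.21 CPM or less and Afp at 6.39 or less, and of the 2 tested Alb was lower in A/J controls. Heart genes summed to 43.9 to 99.1 CPM with Nppa at 0, and thymus genes to 3.12 to 6.06 CPM with Cd3e at 0. Macrophage genes summed to 133 to 177 CPM in all libraries, with 1 of 10 higher and 1 lower between control strains (all genes 16.9%).

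Other globin genes had few counts. Hbb-bh3 had a total of 0 counts over the 16 libraries, Hbb-bh2 had 5, Mb, the muscle oxygen store, had 20, Hbb-bh0 had 41, Hbq1a had 45 and Hbq1b had 78, and none of these passed the filter on low counts. Hbb-bh0, an embryonic beta-type copy beside Hbb-bh1, was at 0.314 ± 0.196 CPM (SD, n = 4) in A/J controls and 0.0555 ± 0.0549 in B6 controls. Cygb and Ngb, globins of tissue cells and neurons, were tested and not called between strains or by BMS493. Cygb was at 12.1 ± 0.913 CPM in B6 controls and 10.4 ± 0.904 in A/J controls, and Ngb at 5.53 ± 0.951 and 3.99 ± 0.679.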

How the data were processed

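Lung RNA from 16 fetuses was sequenced, and the authors deposited raw counts per gene in 3 columns, unstranded and 1 for either strand. The authors used FastQC, cutadapt, STAR and GRCm39, per the submitters' processing notes, with versions not given in the sources used here. The layout is that of STAR's gene counts, whose 4 lines that are not genes were left out, with their shares above. Symbols matched 51884 of 57180 identifiers, which held 98.9% of counts. The unstranded column was used, since libraries split evenly (51.0% to 52.0% on the first strand). The filter filterByExpr of edgeR 4.0.16 (R 4.3.3) kept 17276 genes and removed 39904. A robust quasi-likelihood fit with TMM scaling and 1 coefficient per group used all 16 libraries (12 residual degrees of freedom), with Benjamini-Hochberg adjustment over all genes tested, called under 0.05. All 24 pairs of replicates differed beyond counting error. Log2 CPM used a prior count of 2. Ratios per library, with 0.5 added to counts, were tested by exact permutation in Python 3.11.15 with scipy 1.17.1, adjusted over 24 tests. Scripts were tested on simulated data.

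The 7 globins are named whatever their result, and of the erythroid lists up to 8 called genes of largest change per comparison and 8 fixed genes (Ahsp had no row). The genes most like the globins come from the 8 of highest r. Some genes that these rules name are not reported here. Of 144 list genes 3 had no match by symbol. Members and lists were chosen with earlier results of these data known. Alternatives were RLE scaling, DESeq2 1.42.0, other filters, only the 8 libraries compared, the replicate number, the library number as a term, each strand, globins left out of scaling, other pseudocounts, transcript length, and each library left out.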

Additional observations from a re-analysis of the deposited data

Results flagged for a closer look

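Of 88 groups of 4 libraries examined, 5 held a library whose gap to its nearest neighbour exceeded Dixon's 95% limit, as a share of the range, and chance flags about 1 in 20 groups. Hba-a2 in B6 BMS493 lungs was at 40.8 CPM in replicate 1, against 67.2 to 70.8 in the others. The ratio of Hba-x to the adult alpha genes in A/J controls was 0.0596 in replicate 4, against 0.0393 to 0.0410. Klf1, the activator of adult beta globin, was at 0.546 CPM in A/J control replicate 3, against 0.338 to 0.346, and at 1.41 CPM in A/J BMS493 replicate 2, against 0.403 to 0.557. That last library also held the highest adult globins of its group. Bcl11a in B6 BMS493 lungs was at 24.2 CPM in replicate 3, the library that stood apart, against 28.96 to 29.13.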

How the results depend on the processing

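No called result changed direction under the alternatives run. Among the values of the 7 globins and the 2 summed pairs, called or not, 438 stayed on their side of the threshold and 2 lost a call under alternatives that left out no library. With a library left out 422 stayed on their side, 9 lost a call and 1 gained it. Between strains with BMS493, 1 globin was called in place of 2 with only the 8 libraries compared and with the second stranded column, since Hbb-bh1 missed (log2 0.84, adjusted p = 0.0739, and 0.82, 0.0568, both by edgeR), and 1 to 2 were called with a library left out. In controls 2 to 4 globins were called with a library left out. Erythroid genes called by BMS493 in B6 numbered 1 with no filter on low counts and 0 to 1 with a library left out (1 without B6 BMS493 replicate 3). Between control strains they numbered 17 in place of 10 with only the 8 libraries (30.4%, all genes 22.6%), and 6 to 9 with a library left out (6 without A/J control replicate 3). With BMS493 they numbered 5 in place of 11 with only the 8 libraries (8.77%, all genes 14.3%) and 7 with the second stranded column (12.7%, all genes 16.6%), and 5 to 11 with a library left out (5 without B6 replicate 2 or A/J replicate 4, 6 without A/J replicate 1). The cause was not tested. The beta-type ratio between strains ranged from 0.77 to 1.17 with a library left out, and the globins over 10 red cell genes, a reference chosen after seeing the data from which nothing is read, differed by 0.45 in place of 0.26, with an adjusted p of 0.0131 in place of 0.483 by exact permutation.

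Within libraries named 1 to 8 and 9 to 16, the strain difference of the BMS493 effect was -1.01 and 0.18 for Hba-x over adult alpha, -1.12 and 0.51 for embryonic over adult beta, -0.17 and 0.48 for Hbb-bs over Hbb-bt, 1.59 and -0.45 for Hba-a2 over Hba-a1, and 0.47 and -0.57 for globins over erythroid genes (log2, no test). None of these pooled differences was called.

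Replicate numbers did not pair the samples: 1 of 16 same-numbered pairs had deviations correlated over 0.1 (range -0.15 to 0.14). With the replicate block, the exact sign-flip permutation test gave adjusted p = 0.0938 for Hbb-bs over Hbb-bt (0.79), where the unadjusted p was already the smallest that 8 pairs allow, so this says nothing about stability. It gave 0.125 for alpha-type over beta-type (0.30), and the value of Hba-a2 over Hba-a1 was again -9.85. The block changed no count of globins called. Hba-a2 over Hba-a1 with a pseudocount of 0 was not run, as libraries are at 0. Low counts limit the precision of Hbb-bh1 (16 to 143 per library) and of Hba-a2 in A/J. With a pseudocount of 5, Hba-a2 over Hba-a1 differed between strains by -8.20.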

Other observations

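Fragments of Hbb-bt were split unevenly between strands in A/J. The share on the first strand was 55.1% to 62.7% (median 57.1%) in the 8 A/J libraries and 49.1% to 52.6% (median 51.8%) in the 8 B6 libraries, with no overlap. For Hbb-bs it was 50.3% to 51.7% in A/J and 50.3% to 52.2% in B6, and for Hba-a1 it was 49.8% to 53.4% in A/J and 49.0% to 52.3% in B6. From the first stranded column alone the strain difference of Hbb-bs over Hbb-bt was 0.62 on the log2 scale, and from the second it was 0.99, and both passed the exact permutation test (adjusted p = 0.0049 each).

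Hbb-y, the later embryonic beta-type chain, had its lowest CPM of all 16 libraries in B6 BMS493 replicate 2 (158), and Hbb-bh1, the earlier chain, had its lowest in B6 BMS493 replicate 3 (1.07). In replicate 3 the ratio of Hbb-y to Hbb-bh1 was 310.3, against 85.8 to 137 in the other 15 libraries.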
